A study of Mus musculus with 3 samples.

Results

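The genes described here are 6 genes of antigen presentation by MHC class II in the mouse: Cd74, H2-Aa, H2-Ab1, H2-Eb1, H2-DMa and Ciita. They are the 6 listed genes with a probe of that symbol in the platform annotation, out of 13697 genes with a single-symbol probe and a value on every array, and each had 1 probe. Fetal liver RNA of E14.5 embryos was measured on 3 single-colour CodeLink arrays, 1 per genotype: embryos that lacked DNase II together with IFN-IR (double-deficient), embryos deficient in DNase II, and wild-type embryos. IFN-IR is the receptor for type I interferon, and DNase II, a nuclease of lysosomes, degrades the DNA that macrophages take up with dying cells and expelled erythroid nuclei. How many embryos made up each array, their strain and their H2 haplotype, which decides the class II alleles a mouse carries, were not stated in the labels used here. Whether the class II probes read every allele alike was not tested, so a difference between arrays in H2-Aa, H2-Ab1 or H2-Eb1 is one of probe signal, and a difference of allele cannot be told apart from one of level. The 6 genes were chosen with their values on these arrays known. Every difference below is therefore a description without a test, between single arrays that have no replicates.

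MHC class II molecules are pairs of an alpha and a beta chain that carry peptides from endosomes to the surface of dendritic cells, B cells and some macrophages, where CD4+ T cells read them. The invariant chain, encoded by Cd74, holds newly made pairs and fills their groove until proteases remove it, and H2-DM exchanges the remaining fragment for peptide. Transcription of the class II alpha and beta chain genes depends on the coactivator CIITA, together with factors that sit on the X and Y boxes of their promoters. Interferon-gamma induces CIITA in many cells.

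Probe signal of 4 of the 6 genes (Cd74, H2-Aa, H2-Ab1 and H2-Eb1) was highest in the double-deficient fetal liver. Values are the authors' normalised intensities, which have no unit, and the median over all probes was 0.964 in the double-deficient array, 0.959 in the DNase II-deficient array and 0.958 in the wild-type array. A probe under the array's 25th percentile, which lay at 0.163, 0.159 and 0.162 in the same order, was set to that floor before log2 was taken. Of the 6 genes, 5 lay above the median in the double-deficient array, 2 in the DNase II-deficient array and 1 in the wild-type array. In the DNase II-deficient array 2 of them were below the floor. Signals of different probes are not comparable as transcript levels, so each gene is set only against itself.

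The probe of Cd74, the invariant chain gene, read 5.73 in the double-deficient array, 2.43 in the DNase II-deficient array and 0.898 in the wild-type array, at percentiles 77.2, 65.0 and 49.0 of those arrays. The order was thus double-deficient, DNase II-deficient, wild-type, with neighbours in it at least 2-fold apart. Against wild-type, Cd74 was 6.38-fold higher in the double-deficient array and 2.70-fold higher in the DNase II-deficient array, and it was 2.36-fold higher in the double-deficient than in the DNase II-deficient array. Only 16 of 8158 genes compared exceeded that difference of the double-deficient array from wild-type. Genes were compared if either array of the pair read above its median. Cd74 met this rule against wild-type only through the mutant array and was chosen with its values known. Its place among the 8158 genes therefore describes the reading and supports nothing further.

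**Figure D1:**
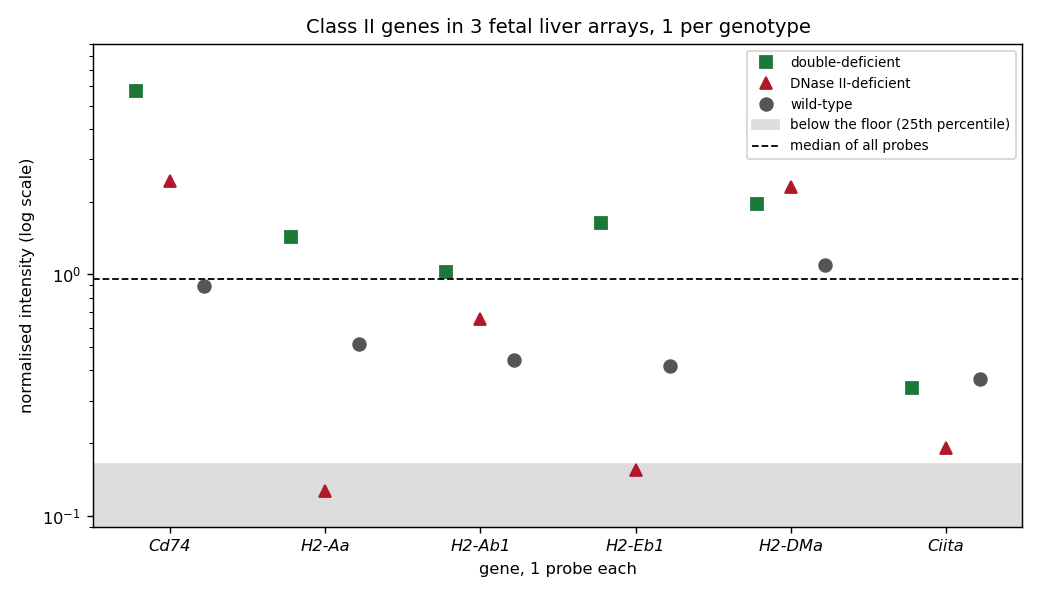
Normalised intensity (log scale, no unit) of the 6 class II genes, 1 probe each, with 1 point per array: double-deficient, DNase II-deficient and wild-type from left to right within each gene. The dashed line is the median of all probes and the grey band lies below the floor. Cd74 stood at 5.73, 2.43 and 0.898, and H2-Aa and H2-Eb1 lay in the grey band in the DNase II-deficient array alone.

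The classical chains H2-Aa and H2-Eb1 had an order unlike that of Cd74. H2-Aa, the alpha chain of the I-A molecule, read 1.42 in the double-deficient array, 0.127 in the DNase II-deficient array and 0.512 in the wild-type array. H2-Eb1, the beta chain of the I-E molecule, read 1.63 in the double-deficient array, 0.155 in the DNase II-deficient array and 0.416 in the wild-type array. Both were highest without DNase II and the interferon receptor together, and both were lowest, under the floor, without DNase II alone.

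Between the double-deficient and DNase II-deficient arrays, H2-Aa was at least 8.98-fold higher and H2-Eb1 at least 10.3-fold higher. Both bounds rest on dim readings: with the floor at the array median the log2 differences were 0.57 and 0.77, and neither gene was counted as 2-fold different. H2-Aa was 2.78-fold and H2-Eb1 3.92-fold higher in the double-deficient than in the wild-type array. In the DNase II-deficient array they were at least 3.23-fold and at least 2.62-fold lower than in wild-type, but both arrays of that pair lay below the median, so these values carry little weight. Among 3121 genes that were likewise below the median in both arrays without both being under the floor, 4.29% were at least 2-fold lower in the DNase II-deficient array.

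H2-Ab1, the beta chain that pairs with the H2-Aa product, read 1.03 in the double-deficient array, 0.652 in the DNase II-deficient array and 0.442 in the wild-type array. The double-deficient array was again the highest. H2-Ab1 was 2.32-fold higher there than in the wild-type array, and its other 2 differences were smaller than 2-fold, with log2 values of 0.66 for double-deficient minus DNase II-deficient and 0.56 for DNase II-deficient minus wild-type. The last of these, with both arrays below the median, is within 0.64, the spread of that difference among the 500 genes nearest in mean level, taken as the median absolute deviation scaled to a standard deviation, so no order was set between those 2 arrays.

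H2-DMa, the alpha chain of the peptide exchange factor H2-DM, was higher in both mutants. It read 1.96 in the double-deficient array, 2.30 in the DNase II-deficient array and 1.10 in the wild-type array, and was the only gene of the 6 to lie above the median in all 3. The DNase II-deficient array exceeded wild-type 2.10-fold and the double-deficient array exceeded wild-type 1.79-fold. The log2 difference between the mutants, -0.23 for double-deficient minus DNase II-deficient, was inside the spread of 0.44 among genes of like level, so the mutants could not be put in order.

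Ciita, the coactivator that controls class II transcription, gave a dim signal throughout. It read 0.338 in the double-deficient array, 0.191 in the DNase II-deficient array and 0.367 in the wild-type array, below the median in all 3 and therefore not counted in any comparison. The double-deficient and wild-type values differed by -0.12 on the log2 scale, inside the like-level spread of 0.48. The DNase II-deficient value was the lowest, with a log2 difference of -0.94 from wild-type against a spread of 0.76. A signal this close to the floor of 0.159 cannot show whether the coactivator's mRNA followed the class II chains.

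Counted together in DNase II-deficient minus wild-type, 2 of the 6 genes, Cd74 and H2-DMa, were higher by 2-fold or more, and neither direction could be counted for the other 4, which lay below the median in both arrays. The shares over all 8383 genes were 7.67% for higher and 6.17% for lower. In double-deficient minus DNase II-deficient, 3 of the 6 (Cd74, H2-Aa and H2-Eb1) were higher by that size, against 3.11% of 8303 genes, and none was lower by it, against 4.85%. In double-deficient minus wild-type, 4 of the 6 (Cd74, H2-Aa, H2-Ab1 and H2-Eb1) were higher by 2-fold or more, against 2.05% of 8158 genes, and none was lower, against 0.735%. The 3 comparisons share arrays, and the 2 that involve the double-deficient array use the same reading of it. Cd74 entered the comparisons with wild-type only through the mutant array, and H2-Aa, H2-Ab1 and H2-Eb1 entered both comparisons of the double-deficient array only through that array. Genes that enter through 1 array had to be bright in it, so these counts describe the readings and support nothing further. With the floor at the array median, or the filter at the 75th percentile, 1 of the 6 was counted higher in each comparison of the double-deficient array. Genes whose brighter array lay between 1 and 3 times the median, where most of these probes fall, were at least 2-fold higher in 9.34%, 2.26% and 2.87% of cases in the same 3 comparisons. Over the 6 genes the median log2 difference was -0.19, 1.03 and 1.34, beside -0.16, 0.09 and -0.05 over the 11648 genes above the floor on any array.

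The scaling of the arrays bears on these backgrounds. Genes at least 2-fold higher made up 55.4% of the calls in DNase II-deficient minus wild-type as deposited, 65.8% with quantile normalisation, 67.1% when scaled on the 75th percentile, 74.2% with cyclic loess and 73.6% with centring. In double-deficient minus DNase II-deficient they made up 39.0% as deposited, against 23.9% after loess and 26.8% after centring. The median of the genes compared was -0.21 in DNase II-deficient minus wild-type as deposited and 0.03 after loess, and 0.11 and -0.04 in double-deficient minus DNase II-deficient. Relative to the deposited medians, Cd74 exceeded the typical gene further in the first comparison and less in the second, and the counts of class II genes were the same under all 4 scalings. Genes with 2 probes above the filter give a guide to disagreement between probes. The median gap between the differences of the 2 probes was 0.32, 0.29 and 0.23 on the log2 scale in the 3 comparisons (495, 478 and 476 genes). Both probes were read on the same arrays, so this gap holds no error between arrays and no difference between embryos.

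**Figure D2:**
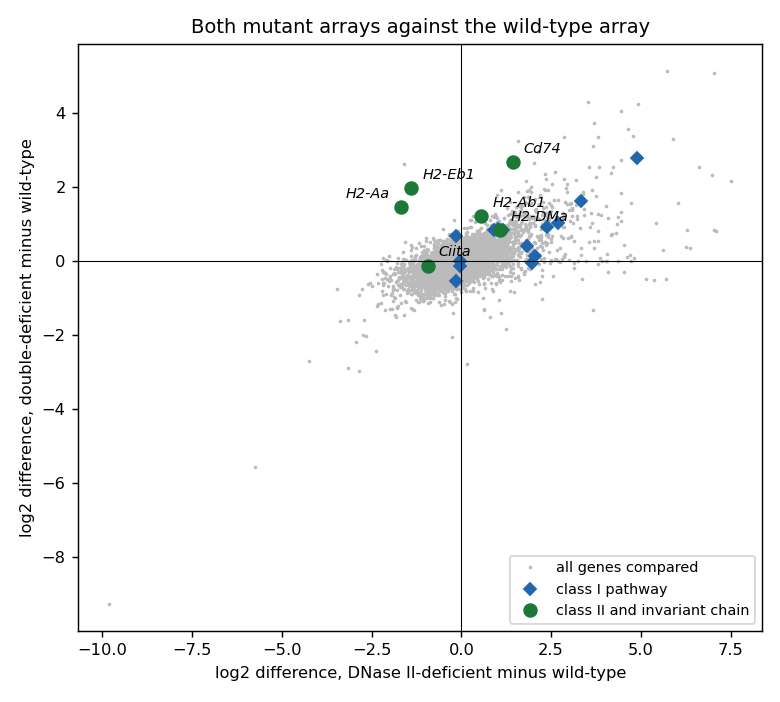
Log2 difference of each gene in DNase II-deficient minus wild-type (horizontal) and double-deficient minus wild-type (vertical), with 1 point per gene above the median in at least 1 array of either pair (grey), the class I pathway (blue diamonds) and the 6 class II genes (green circles, named). Both axes use the same wild-type array, and values under the floor were set to it. H2-Aa and H2-Eb1 lay to the left of 0 and above it, at vertical values of 1.47 and 1.97, whereas Cd74 lay at 1.43 and 2.67.

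H2-Aa and H2-Eb1 are neighbours on chromosome 17 and shared the order of their readings, so their promoters are shown. The RefSeq windows (GRCm38.p6), from 250 bases before to 50 after the annotated start, covered 3 of the 6 genes in 4 windows. They were searched on both strands for CCAAT, the core of the Y box bound by NF-Y, and for letters chosen for the X box bound by the RFX complex (AG, 2 free bases, AC, 1 free base, GA, 1 free base, G), and matches are in capitals. The printed windows lie at chr17:34287774-34288073 on the minus strand for H2-Aa and at chr17:34305617-34305916 on the plus strand for H2-Eb1.
H2-Aa: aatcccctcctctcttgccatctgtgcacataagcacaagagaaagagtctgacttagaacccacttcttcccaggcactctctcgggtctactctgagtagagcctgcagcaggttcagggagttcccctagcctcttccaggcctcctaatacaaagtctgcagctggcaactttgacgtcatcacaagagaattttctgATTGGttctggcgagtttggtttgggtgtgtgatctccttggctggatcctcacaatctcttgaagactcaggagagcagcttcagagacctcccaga
H2-Eb1: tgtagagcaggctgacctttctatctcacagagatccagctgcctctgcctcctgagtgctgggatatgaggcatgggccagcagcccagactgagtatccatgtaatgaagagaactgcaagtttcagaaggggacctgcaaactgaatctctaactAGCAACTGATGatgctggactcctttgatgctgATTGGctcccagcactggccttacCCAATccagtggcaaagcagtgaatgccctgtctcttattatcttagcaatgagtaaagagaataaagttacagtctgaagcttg
The H2-Eb1 window held 1 match to the X box letters, AGCAACTGATG at position -92 from the start site, and 2 matches to the Y box core, at -59 as its reverse complement and at -35. The H2-Aa window held 1 match to the Y box core, at -48 as its reverse complement, and none to the X box letters. Of the 2 H2-DMa windows, 1 held a Y box core and neither the X box letters. Over all 32851 promoter windows of that length, 37.4% held the Y box core, 5.33% the X box letters and 1.98% both, so the short core alone is common. A match is a run of letters and not a measured binding site, and no match says only that these letters are not in the window.

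The other class II chains gave no comparable signal. Of 6 listed, H2-DMb1, H2-DMb2, H2-Oa, H2-Ob and H2-Ea had a probe, none lay above the median in any array, and none could be counted in any comparison. H2-Ob, a chain of the H2-O inhibitor of H2-DM, read 0.692 in the double-deficient array, 0.634 in the DNase II-deficient array and 0.704 in the wild-type array. H2-DMb1, the beta chain that pairs with the H2-DMa product, read 0.236, 0.189 and 0.252 in that order. H2-Ea, the alpha chain that pairs with the H2-Eb1 product, read 0.229, 0.211 and 0.137, so its wild-type value was below the floor. The partners of H2-DMa and H2-Eb1 thus had signals too dim to be set beside them.

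Proteases and other factors that prepare class II molecules had no single order over the arrays. Of 8 measured genes of 9 listed, 7 could be compared. In DNase II-deficient minus wild-type 1 of these was higher and 1 lower by 2-fold or more, beside 7.67% and 6.17% of all genes compared. Ctss, cathepsin S, which cleaves the invariant chain, read 42.6 in the double-deficient array, 75.3 in the DNase II-deficient array and 18.6 in the wild-type array. Ctss was thus highest in the DNase II-deficient array, where H2-Aa and H2-Eb1 read below the floor. It was 4.04-fold higher in the DNase II-deficient and 2.29-fold higher in the double-deficient array than in wild-type. Marchf8, a ubiquitin ligase that removes class II from the cell surface, read 6.54 in the double-deficient array, 3.07 in the DNase II-deficient array and 7.71 in the wild-type array. It was 2.51-fold lower in the DNase II-deficient than in the wild-type array and 2.13-fold higher in the double-deficient than in the DNase II-deficient array. The remaining members, the cathepsins Ctsb, Ctsd and Ctsl, the endosomal protease Lgmn, the thiol reductase Ifi30 and the stabiliser Cd83, were not counted as 2-fold different in any comparison. Among them Ctsb read 14.1 in the double-deficient array, 9.05 in the DNase II-deficient array and 10.1 in the wild-type array, and Ifi30 read 20.9, 18.3 and 15.4 in that order.

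Among regulators of class II transcription, Irf1 and Ifngr1 were higher in the DNase II-deficient array. Of 14 measured of 16 listed, 11 could be compared. In DNase II-deficient minus wild-type 2 of these were at least 2-fold higher, beside 7.67% of all genes. None differed by 2-fold in double-deficient minus DNase II-deficient, beside 3.11% higher and 4.85% lower. In double-deficient minus wild-type 1 was at least 2-fold higher, beside 2.05%. Irf1, a transcription factor downstream of interferon receptors, read 10.3 in the double-deficient array, 16.4 in the DNase II-deficient array and 3.40 in the wild-type array. It was therefore 3.02-fold above wild-type in the double-deficient array and 4.83-fold above it in the DNase II-deficient array. Ifngr1, a chain of the interferon-gamma receptor, read 3.86, 6.75 and 3.26 in the same order and was 2.07-fold higher in the DNase II-deficient than in the wild-type array. Ifng itself was below the floor in all 3 arrays, at 0.0648 in the double-deficient, 0.0603 in the DNase II-deficient and 0.0162 in the wild-type array. The RFX subunit genes Rfxap and Rfxank and the NF-Y genes Nfya, Nfyb and Nfyc were within 2-fold in every comparison.

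Class I genes were mostly highest in the DNase II-deficient array, where H2-Aa and H2-Eb1 read below the floor. Of 17 listed class I pathway genes 14 were measured, and H2-K1, H2-D1 and Nlrc5 were not. In DNase II-deficient minus wild-type 9 were higher by 2-fold or more, beside 7.67% of all genes compared. In double-deficient minus DNase II-deficient 7 were lower by it, beside 4.85%, and none was higher. In double-deficient minus wild-type 3 were higher by it, beside 2.05%. The median log2 differences of the 14 genes were 1.50, -0.90 and 0.76, beside the class II medians of -0.19, 1.03 and 1.34. B2m, which encodes the beta-2-microglobulin subunit of class I, read 121.3 in the double-deficient array, 455.8 in the DNase II-deficient array and 111.1 in the wild-type array. With 1 array per genotype the difference between class I and class II could not be tested.

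**Figure D3:**
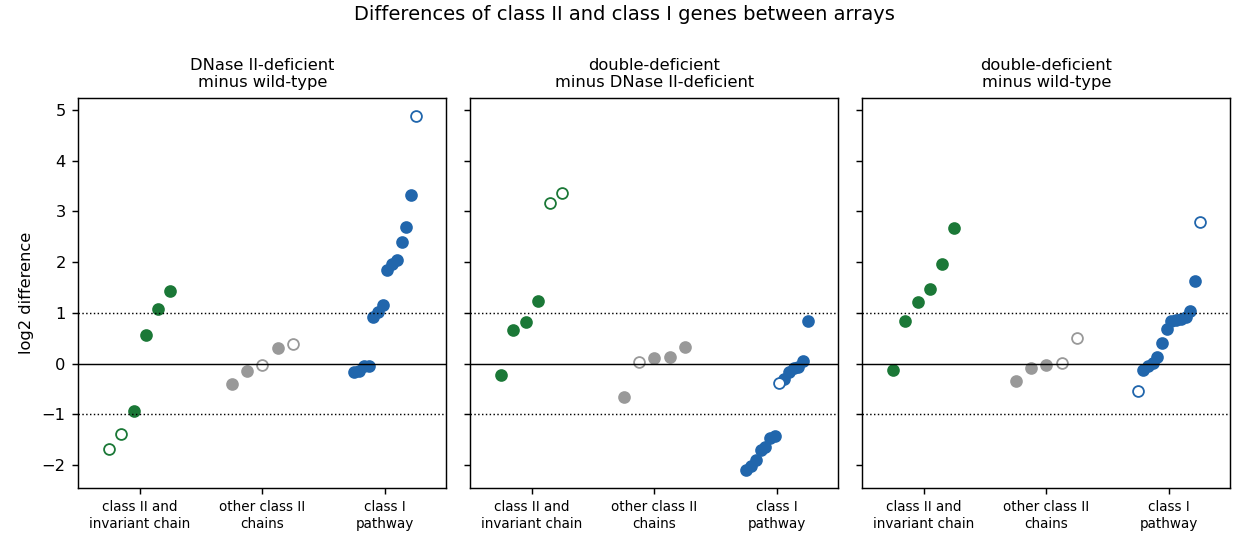
Log2 differences in the 3 comparisons (panels) of the 6 class II genes (green), the other class II chains (grey) and the class I pathway (blue), with 1 point per gene. Open points have an array at the floor and are bounds, or have both arrays there, and dotted lines mark 2-fold. In the middle panel 3 class II genes lay above the upper dotted line and 7 class I genes below the lower one.

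Genes of both pathways lie side by side on the chromosome. From H2-DMa to H2-Eb1, the RefSeq annotation orders 11 protein-coding genes on chromosome 17, and all 11 had a probe. This stretch was chosen after the values were seen. The class I processing genes Psmb9, Tap1, Psmb8 and Tap2, which encode immunoproteasome subunits and the peptide transporter, lie inside it, between the H2-DM genes and H2-Ob. Their log2 differences in double-deficient minus DNase II-deficient were -1.65, -2.10, -1.70 and -1.43, whereas those of H2-Ab1, H2-Aa and H2-Eb1, at the far end, were 0.66, 3.17 and 3.36 and that of H2-DMa, at the near end, was -0.23. In DNase II-deficient minus wild-type the 4 class I genes had values of 2.70, 4.89, 3.32 and 1.84, and H2-DMa had 1.07, the same direction. H2-Ab1 had 0.56, inside its like-level spread of 0.64, so no direction was set for it. H2-Aa and H2-Eb1 had -1.69 and -1.39, but both arrays of this pair lay below the median for them, so these values carry little weight. The values of Tap1 in this pair and of H2-Aa and H2-Eb1 in both pairs are bounds, since 1 array was at its floor.

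**Figure D4:**
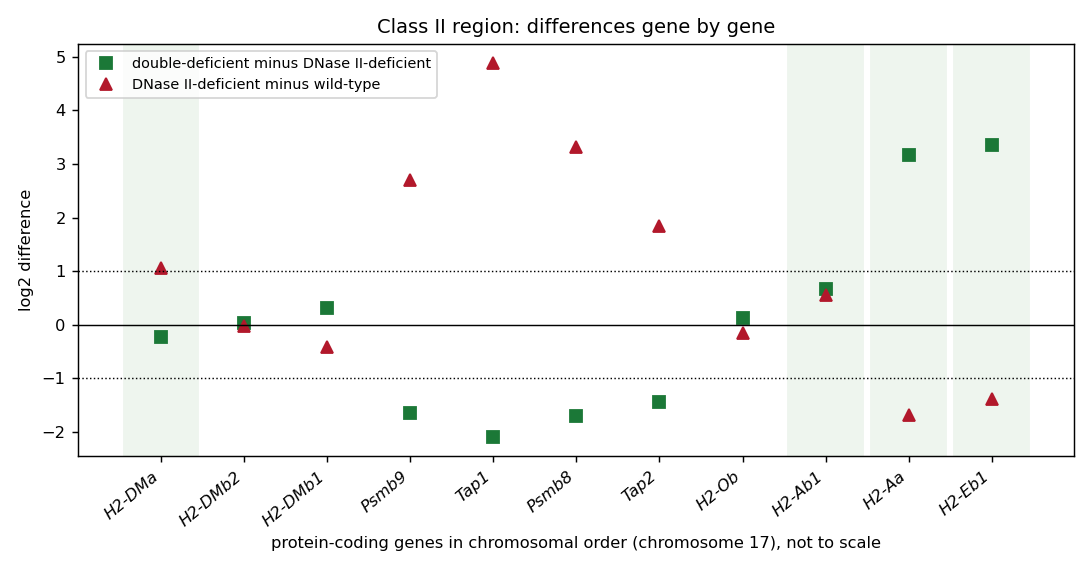
Log2 differences of the 11 protein-coding genes from H2-DMa to H2-Eb1 in chromosomal order, not to scale, for double-deficient minus DNase II-deficient (green squares) and DNase II-deficient minus wild-type (red triangles), with H2-DMa, H2-Ab1, H2-Aa and H2-Eb1 shaded. Values with an array at the floor (Tap1 in wild-type, H2-Aa and H2-Eb1 in the DNase II-deficient array) are bounds. Psmb9, Tap1, Psmb8 and Tap2 had red above green, as H2-DMa did, and H2-Aa and H2-Eb1 had green above red. H2-Ab1, H2-DMb1 and H2-Ob also had green above red, by less.

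Which cells carried the signal cannot be read from whole liver, where fewer cells of a type and less RNA per cell cannot be told apart. The tissue label matched bright hepatocyte and erythroid probes. Afp, the fetal albumin-like protein of hepatocytes, read 568.5 in the double-deficient array, 885.1 in the DNase II-deficient array and 582.5 in the wild-type array, and Hba-a1, an adult alpha globin, read 546.8, 481.7 and 631.7. Erythroid genes differed between the arrays. Of 7 measured, 5 were at least 2-fold lower in the DNase II-deficient than in the wild-type array, beside 6.17% of all genes compared. In the double-deficient array 2 were at least 2-fold higher than in the DNase II-deficient array, beside 3.11%.

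Markers of the cells that usually carry class II moved in several ways. Of 10 measured dendritic cell markers of 12 listed, 4 could be compared in DNase II-deficient minus wild-type and 4 in double-deficient minus DNase II-deficient. In double-deficient minus wild-type 3 could be compared, and the others were too dim to be counted. Among those compared, only Irf8, a transcription factor of dendritic cells and monocytes, differed by 2-fold. It was higher in DNase II-deficient minus wild-type, beside 7.67% of all genes compared, and lower in double-deficient minus DNase II-deficient, beside 4.85%. It read 0.718 in the double-deficient array, 2.29 in the DNase II-deficient array and 0.431 in the wild-type array. The integrin Itgax read 1.58, 1.50 and 1.97 and the receptor Flt3 0.737, 0.469 and 0.577 in that order. The summed signal of these probes, in which Xcr1 alone made up 8.20, 6.25 and 5.44, was 16.6 in the double-deficient, 15.4 in the DNase II-deficient and 12.4 in the wild-type array, with 1 marker, Ccr7, below the floor in each.

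Of 10 measured B cell markers of 12 listed, 3 could be compared in each comparison, and the others were too dim to be counted. Among those 3, Vpreb1, the surrogate light chain of B cell precursors, was the only one that differed by 2-fold. It was lower in DNase II-deficient minus wild-type, beside 6.17% of all genes compared, and higher in double-deficient minus DNase II-deficient, beside 3.11%. It read 1.90 in the double-deficient array, 0.795 in the DNase II-deficient array and 2.51 in the wild-type array. Its lowest value was in the array where H2-Aa and H2-Eb1 read below the floor. The antigen receptor components went apart, Cd79a at 7.29, 5.86 and 9.08 and Cd79b at 1.74, 2.07 and 1.29 in that order, and the B lineage factor Pax5 read 0.431, 0.373 and 0.352. The summed signal of these probes, more of it from Cd79a than from any other, was 13.1 in the double-deficient, 10.9 in the DNase II-deficient and 15.3 in the wild-type array, with Ms4a1, Blk and Blnk below the floor in each.

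Macrophage and monocyte markers split. Of 11 measured of 14 listed, 10 could be compared in DNase II-deficient minus wild-type and 9 in each comparison of the double-deficient array. In DNase II-deficient minus wild-type 4 were higher and 3 lower by 2-fold or more, beside 7.67% and 6.17% of all genes compared. In double-deficient minus DNase II-deficient 2 were higher and 1 lower by it, beside 3.11% and 4.85%. In double-deficient minus wild-type 3 were lower by it, beside 0.735%, and none was higher, beside 2.05%. Mrc1, the mannose receptor, read 7.24 in the double-deficient array, 2.78 in the DNase II-deficient array and 3.98 in the wild-type array. Mrc1 was thus highest in the double-deficient array, as H2-Aa was. Itgam, Cd14, Ccr2 and Lyz2 were instead highest in the DNase II-deficient array, at 1.35, 3.32, 2.85 and 52.2. They read 0.476, 1.69, 1.75 and 47.8 in the double-deficient array and 0.296, 0.876, 0.910 and 24.6 in the wild-type array. The scavenger receptor Marco read 13.5 in the double-deficient array, 3.98 in the DNase II-deficient array and 41.1 in the wild-type array. Cd5l read 4.10, 3.41 and 30.6 and Clec4f 0.0902, 0.177 and 1.27 in that order. Marco, Cd5l and Clec4f were each at least 2-fold lower in both mutants than in wild-type. Adgre1, which encodes the macrophage antigen F4/80, was dim and level at 0.271, 0.282 and 0.269. Summed signal was 89.3 in the double-deficient, 87.4 in the DNase II-deficient and 118.4 in the wild-type array. Marco and Cd5l were the largest parts of the wild-type sum, and Lyz2 was the largest part in both mutants. Only 1 marker, Clec4f in the double-deficient array, was below the floor. Of 8 measured T and innate lymphoid markers, 3, 3 and 2 could be compared in the same 3 comparisons. Among those compared, Nkg7 alone was counted as 2-fold different. It was 2.07-fold higher in the DNase II-deficient than in the wild-type array, beside 7.67% of all genes compared. The summed signal was 3.93 in the double-deficient, 4.33 in the DNase II-deficient and 3.09 in the wild-type array, with 3, 4 and 3 markers below the floor. The part of any of these cells in the class II differences was not tested.

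Genes outside these lists were ranked by how closely their pattern matched. The measure was the Euclidean distance between the pairs of log2 differences from wild-type, over 3 arrays and 8360 candidate genes above the median in at least 1 array and above the floor in all. Nearest to Cd74 were Timp1, Galnt3, Tmem273, Inpp5d and Fgr, at distances of 0.64 to 0.87. Each of them differed less than 2-fold between the mutant arrays, where Cd74 differed 2.36-fold, so they did not share that step. Timp1, an inhibitor of matrix metalloproteinases, read 3.49 in the double-deficient array, 2.73 in the DNase II-deficient array and 0.783 in the wild-type array. No such ranking is given for H2-Aa, whose DNase II-deficient value was below the floor, so that its difference is only a bound.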

How the data were processed

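Selected poly(A) RNA was, per the labels' protocols, made into cDNA, transcribed with a biotinylated nucleotide, hybridised to CodeLink arrays, stained with Cy5 streptavidin and read with the CodeLink software, with no version, background method or filter stated there. The deposited values are normalised intensity on a linear scale, with 253, 224 and 267 values at or below 0 in the double-deficient, DNase II-deficient and wild-type arrays. Of 20289 probes, 125 lacked a value on at least 1 array and were left out. The platform annotation, not a recent one, gave 15120 probes a single symbol, 38 several and 5131 none, and only the first kind named a gene.

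Values below the array's 25th percentile were set to it and log2 transformed. Of several probes of a gene, the one with the highest mean stood for it. Genes were compared if either array of the pair read above its median, and counted at 2-fold. With 1 array per genotype no test was possible, and the number of arrays limits the precision. The steps were tested on simulated data, with changes planted only in genes brighter in wild-type than any of the 6 class II genes. Recovery at the levels of these probes was therefore not tested. Genes were named by rule: the 6 class II genes, for each list and comparison no more than 4 members 2-fold different (fewer are printed for lists outside class II), defining markers of class II-bearing cells, and the 5 nearest patterns to Cd74; the same ranking for H2-Aa is left out because a floored value has no exact distance. Other list members were named after their values were seen. Listed genes without a single-symbol probe, such as Rfx5, were not analysed here. The members and lists were chosen with earlier results of these data known. Alternatives used Python 3.11.15 with pandas 2.3.3 and, for cyclic loess, limma 3.58.1.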

Additional observations from a re-analysis of the deposited data

How the results depend on the processing

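The counts of class II genes at least 2-fold different did not depend on quantile, 75th percentile or loess scaling, on centring or on a floor at the 10th percentile. Averaging probes could not alter them, since each gene had 1 probe. They did depend on how dim probes were treated. With the filter at the 75th percentile, 0 class II genes were at least 2-fold higher in DNase II-deficient minus wild-type and 1 in each comparison with the double-deficient array. With the floor at the array median, 1 was higher in each comparison with the double-deficient array, in place of 3 and 4. With no filter, 2 were counted lower in DNase II-deficient minus wild-type, beside 651 of 13697 genes. The floor at the median left H2-Aa and H2-Eb1 with log2 differences of 0.57 and 0.77 in both comparisons of the double-deficient array and 0.00 in DNase II-deficient minus wild-type, H2-Ab1 with 0.10 in both comparisons of the double-deficient array, and Ciita with 0.00 in DNase II-deficient minus wild-type and 0.01 in double-deficient minus DNase II-deficient; that floor lies above most of these readings by construction. Over the scaling, floor and probe alternatives Cd74 stayed between 1.34 and 1.64 in DNase II-deficient minus wild-type, between 1.12 and 1.24 in double-deficient minus DNase II-deficient, and between 2.58 and 2.75 in double-deficient minus wild-type. Over the whole array, the filter at the 75th percentile gave 310 higher and 321 lower genes, 158 and 192, and 67 and 25 in the 3 comparisons, taken in that order, because fewer genes were compared. Without a filter 259 were higher and 97 lower in double-deficient minus wild-type. Loess and centring gave 287 and 298 lower genes in DNase II-deficient minus wild-type, and loess 162 higher in double-deficient minus DNase II-deficient. Centring takes the deposited median, -0.21 in the first of these comparisons, from every difference, so fewer genes are counted lower by construction. Loess moved the medians of the 2 comparisons from -0.21 and 0.11 to 0.03 and -0.04, and what else changed its counts was not tested. No paired analysis was possible because each genotype had 1 array. Signal over background and the number of arrays both limit these results: each gene had 1 probe, many readings lay near or below the array median, and each genotype had 1 array.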
